A study of Drosophila melanogaster with 4 samples.

Results

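Small nucleolar RNAs (snoRNAs) are short stable RNAs that guide the chemical modification of ribosomal and spliceosomal RNA. Their genes were described here together with the genes that host them. The members were the 269 genes of biotype snoRNA, named snoRNA or scaRNA (the relatives of Cajal bodies), among the 17872 genes of the RefSeq gene table of the same assembly (dm6). A further 5 genes carry such a name with the biotype ncRNA and were left out. The snoRNA genes were split by position: 74 lay inside a cytoplasmic ribosomal protein gene, 183 inside another gene, and 12 inside no gene. The 257 nested snoRNAs shared 98 host genes, of which 28 encode ribosomal proteins.

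Box C/D snoRNAs guide ribose methylation by fibrillarin, and box H/ACA snoRNAs guide pseudouridylation by dyskerin, called Nop60B in the fly. In animals most of them have no promoter of their own: they are cut from the introns of host transcripts, many of which encode ribosomal proteins or translation factors, while some hosts are non-coding genes such as the fly Uhg (U snoRNA host gene) loci. U3, which acts in the processing of the ribosomal RNA precursor, is an exception and is transcribed from its own promoter. A peak at a nested snoRNA can therefore belong to the host, and host ends and snoRNA bodies were counted apart.

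The protein followed was Ribbon (Rib), a BTB and Pipsqueak-domain transcription factor, fused to GFP and immunoprecipitated through the tag. One group of embryos was fkh-GAL4::UAS-rib-GFP and the other sage-GAL4::UAS-rib-GFP, both of stages 11 to 16, so the tagged protein came from a transgene under the control of the driver, at a level that was not measured. Both drivers are active in the salivary gland of the embryo, and the chromatin came from machine-sorted whole embryos. Each driver has 1 peak list, made from merged collections, with 4196 peaks for fkh-Gal4 and 907 for sage-Gal4. The lists give positions only, with no peak height or score, and the read depth behind them is unknown. There is no replicate error, no test was run, and each interval covers counting error only and treats genes as independent, which snoRNAs of 1 host are not.

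Tagged Rib lay near a minority of snoRNA genes, and nearly always beside the snoRNA rather than on it. In the fkh-Gal4 list 39 of 269 snoRNA genes had a peak within 1 kb (14.5%, exact 95% interval 10.5 to 19.3). By the same rule, 6.05% of the other genes of at most 500 bp had one when histone and 5S rRNA genes, which stand in tandem arrays, were left out, and 12.5% had one when they were kept. In the sage-Gal4 list 31 of 269 did (11.5%, 7.97 to 16.0), against 2.65% of the short genes without those arrays and 3.07% with them. Other small RNA classes gave 6.09% of tRNA genes and 3.05% of miRNA genes in the fkh-Gal4 list, and 0.962% and 3.05% in the sage-Gal4 list. snRNA genes, of which there are 32, gave 12.5% and 15.6%.

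Mostly the same snoRNAs were met with both drivers. Of the 41 snoRNA genes near a peak in either list, 29 were near one in both, which is 74.4% of the fkh-Gal4 and 93.5% of the sage-Gal4 members. Among the short genes without the arrays, 40 were near a peak in both lists, which is 35.1% of their fkh-Gal4 and 80.0% of their sage-Gal4 members. As a share of all genes of each kind, that is 10.8% of the snoRNA genes and 2.12% of the short genes. The 2 met in the sage-Gal4 list alone lay in RpL17 and RpL27A. The 10 met in the fkh-Gal4 list alone were spread over Nop60B, RpL22, RpS29, tou and 3 snoRNAs that lie inside no gene. The peaks involved were few, 24 of the fkh-Gal4 list (0.572%) and 19 of the sage-Gal4 list (2.09%), since 1 peak often counted for several snoRNAs of a host. Their median width was 150 bp against 122 bp over the whole fkh-Gal4 list, and 155 bp against 102 bp over the whole sage-Gal4 list.

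The shares differed by the position of the snoRNA. Inside ribosomal protein genes, 22 of 74 snoRNAs had a peak within 1 kb in the fkh-Gal4 list (29.7%, 19.7 to 41.5), and 22 of 74 did in the sage-Gal4 list, with 20 of them in common. Inside other genes the counts were 13 of 183 (7.10%, 3.84 to 11.8) and 8 of 183 (4.37%, 1.91 to 8.43). The shares of other short genes, 6.05% and 2.65%, were lower but lay within these intervals. Of the 12 snoRNAs inside no gene, 4 were near a fkh-Gal4 peak (33.3%, 9.92 to 65.1) and 1 was near a sage-Gal4 peak (8.33%, 0.211 to 38.5). The gene sta encodes a ribosomal protein of the small subunit, ribosomal protein SA, but carries no RpS symbol and was counted with the other genes. Both of its snoRNAs were near a peak in both lists, so that counting it with the ribosomal protein genes gave 24 near a peak in each list, and left 11 and 6 in the other genes.

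**Figure D1:**
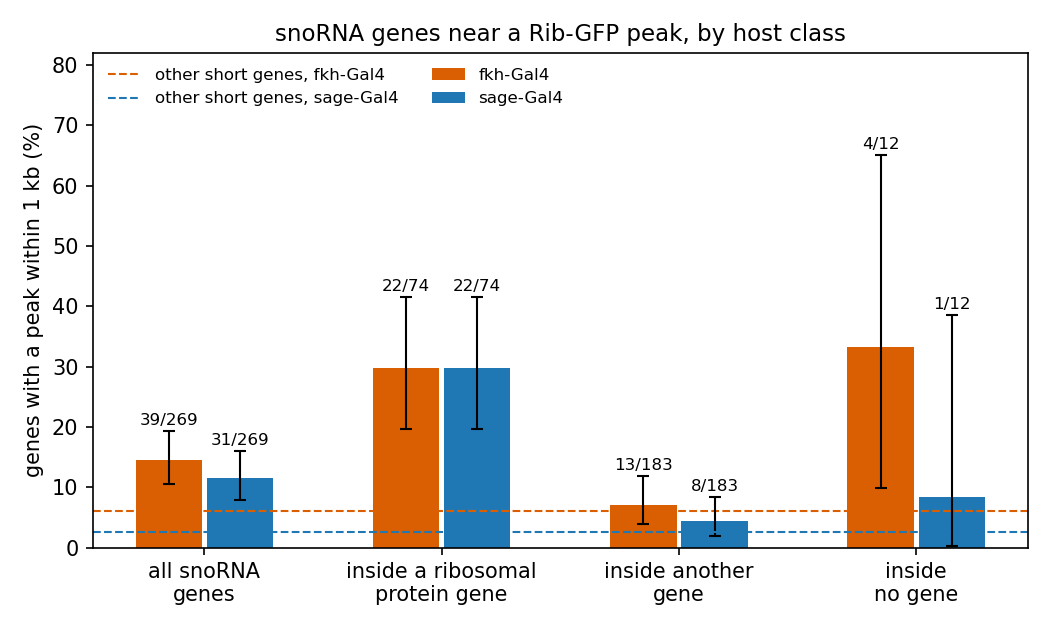
Share of snoRNA genes with a Rib-GFP peak within 1 kb (percent, vertical axis) for all snoRNA genes and for the 3 position classes, in the fkh-Gal4 (orange) and sage-Gal4 (blue) lists; bars are shares, whiskers are exact 95% intervals, and the fractions give the counts. Dashed lines mark other genes of at most 500 bp without histone and 5S rRNA genes, at 6.05% and 2.65%. The bars for snoRNAs in ribosomal protein genes, both 29.7%, stand above them. Those for snoRNAs in other genes, 7.10% and 4.37%, stand above them by less, with whiskers that take in the lines.

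The median distance from a snoRNA to the nearest fkh-Gal4 peak was 1590 bp inside ribosomal protein genes, 30296 bp inside other genes and 2874.5 bp for those inside no gene. For the sage-Gal4 list these medians were 1480, 66423 and 17964.5 bp. The 1 kb limit cut through a dense stretch of this distribution. Just inside it in the fkh-Gal4 list lay snoRNA:Me28S-G1083d of Nop60B (927 bp), snoRNA:Psi28S-2179 of RpL22 (939 bp) and snoRNA:Psi18S-1377a of RpS7 (942 bp), and just outside it snoRNA:Psi28S-1175b of RpS16 (1013 bp), snoRNA:Or-aca3 of RpL4 (1046 bp) and snoRNA:Psi28S-3327b of RpS4 (1061 bp). In the sage-Gal4 list the last inside were snoRNA:Me18S-A425 of RpL3 (902 bp), snoRNA:Psi28S-1175a of RpS16 (918 bp) and snoRNA:Psi18S-1377a (974 bp), and the first outside snoRNA:Psi28S-2179 (1012 bp), snoRNA:Psi28S-2996 of RpL5 (1018 bp) and snoRNA:Psi28S-3327b (1030 bp). All of these lie in hosts that carry a peak, so which snoRNAs of a host were counted depended on how far from its peak they sit.

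**Figure D2:**
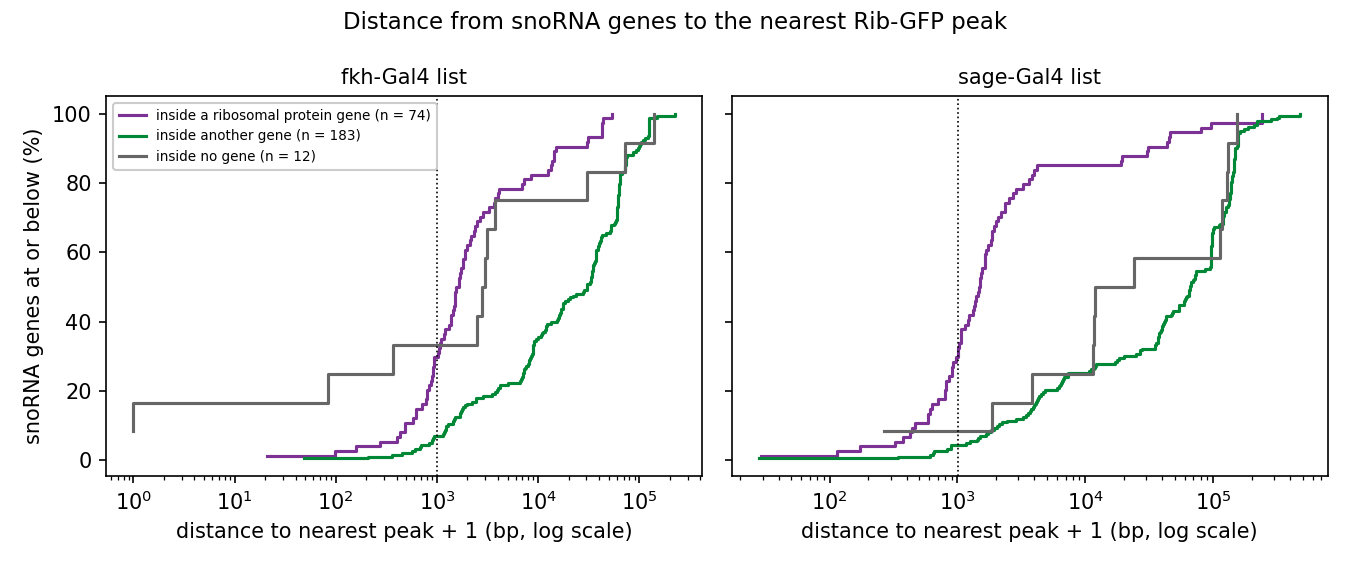
Cumulative share of snoRNA genes (percent) by distance to the nearest peak (bp plus 1, log scale) in the fkh-Gal4 list (left) and the sage-Gal4 list (right), for snoRNAs inside ribosomal protein genes (purple), inside other genes (green) and inside no gene (grey); the dotted line marks 1 kb. The purple curves pass half-way at 1590 and 1480 bp, the green curves at 30296 and 66423 bp.

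No nested snoRNA was covered by a peak. Of the 257 snoRNAs inside a gene, 0 overlapped a peak in either list, which allows a share of up to 1.17%; among other short genes without the arrays, 2.60% overlapped a fkh-Gal4 peak and 0.796% a sage-Gal4 peak. The closest nested snoRNAs were snoRNA:Or-aca2, an orphan H/ACA RNA in RpS6, at 20 bp from a fkh-Gal4 and 28 bp from a sage-Gal4 peak, and snoRNA:Psi28S-2949, a pseudouridylation guide in Uhg4, at 48 and 27 bp. Next came snoRNA:Psi18S-920 in RpL10Ab, at 97 and 114 bp.

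At the ribosomal protein hosts the peaks sat at a gene end. Of these 28 genes, 19 had a fkh-Gal4 peak within 1 kb of an end (67.9%, 47.6 to 84.1) and 21 a sage-Gal4 peak (75.0%, 55.1 to 89.3), 18 of them in both lists; over all protein-coding genes the shares were 8.54% and 4.05%. Peak centres lay a median of 19.5 bp from the end (1.5 to 373.5) over the 19, and 36.5 bp (2.5 to 359.5) over the 21, and the peak spanned the end in 15 and 16 of them. Leaving snoRNA genes out, the host's own end was the nearest annotated gene end in 18 of 19 and in 21 of 21; the exception was RpS6, where the end of the pseudogene CR33222 was 5.5 bp from the fkh-Gal4 peak centre. In every one of these genes, in both lists, the peaks stood at 1 end and never at both. The gene table gives no strand, so whether that end is the transcription start was not read from it.

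In the 18 ribosomal protein hosts met in both lists, the fkh-Gal4 and sage-Gal4 peaks overlapped in all 18, at the same end, with centres a median of 14.75 bp apart (0.5 to 42.0). RpS5a and RpL7A had centres 0.5 bp apart, and RpL22 had the centres farthest apart. Of each pair, the fkh-Gal4 peak was the wider in 8 of the 18. Widths over the 19 and the 21 hosts ran from 94 to 218 bp in the fkh-Gal4 list and from 73 to 288 bp in the sage-Gal4 list.

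**Figure D3:**
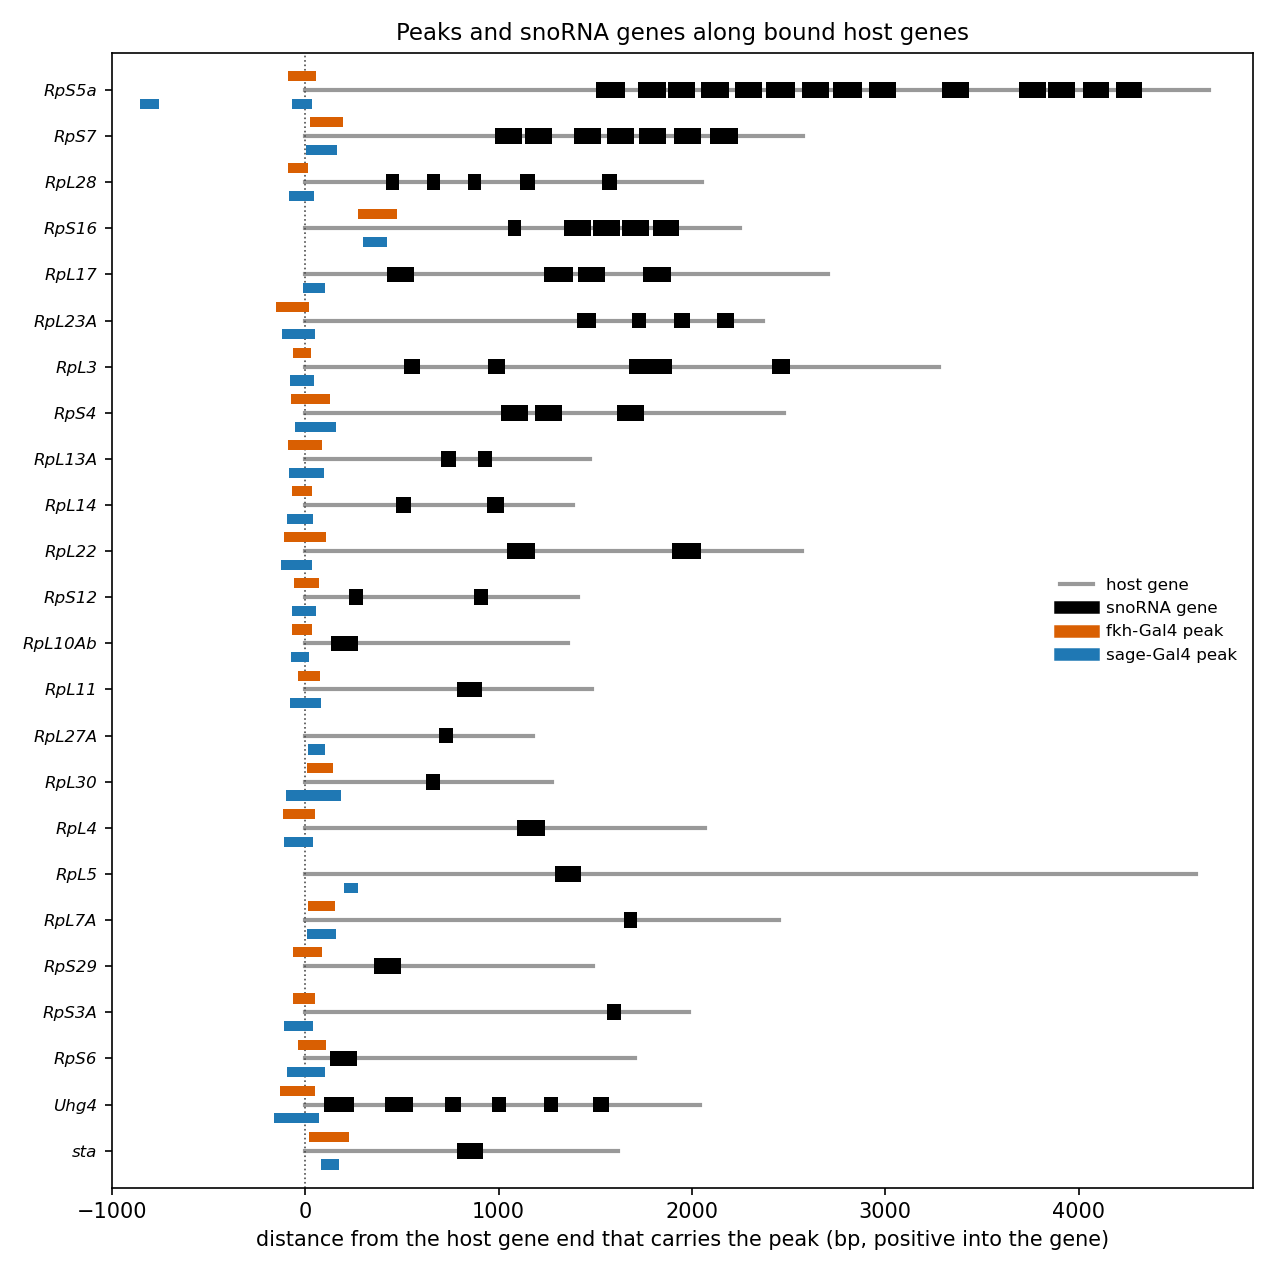
Host genes (grey lines) for the 22 ribosomal protein hosts with a peak at an end in either list and for Uhg4 and sta. They are drawn to scale from the end that carries the peak (bp, horizontal axis, positive into the gene). Black boxes are the snoRNA genes counted under each host, orange bars above are fkh-Gal4 peaks and blue bars below are sage-Gal4 peaks. The 10 other hosts with an end peak (Stt3A, eEF1alpha1, kra, mask, nop5, Tudor-SN, Edc3, hts, skd and drn) are not drawn. In the genes drawn, peaks gather at 0, and no black box is met by a peak: the nearest, in RpS6, is 20 bp away. A second sage-Gal4 peak stands outside the peaked end of RpS5a.

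The snoRNAs of these hosts lay deeper in the gene than the peaks. From the peaked end, the first snoRNA began a median of 785 bp inside, with a range of 128 bp (RpS6) to 1647 bp (RpL7A), over the hosts of either list. In the 19 hosts met in the fkh-Gal4 list, 38 of 58 snoRNAs were nearer the other end of the gene, and in the 21 met in the sage-Gal4 list, 41 of 63 were. With RpS5a included, the share of snoRNAs of ribosomal protein hosts within 1 kb of a peak did not exceed the share of host sequence that was. Over all 28 ribosomal protein hosts, 36.0% of the bases lay within 1 kb of a fkh-Gal4 peak and 40.0% within 1 kb of a sage-Gal4 peak, against 29.7% of the snoRNAs in each list. Over the hosts with an end peak alone, 51.9% of the bases and 37.9% of the snoRNAs were within 1 kb in the fkh-Gal4 list, and 49.1% and 34.9% in the sage-Gal4 list. RpS5a, part of each of these sets, holds 14 of the 74 snoRNAs and none of them was within 1 kb. Leaving it out kept 22 snoRNAs near a peak in each list and took its 14 out of the 74, which raises their share. The share of bases was not recomputed without RpS5a. Whether the order holds without this gene was not tested. In the 70 other hosts the order was the opposite: 4.46% of the bases and 7.10% of the snoRNAs were within 1 kb of a fkh-Gal4 peak, and 2.04% and 4.37% of a sage-Gal4 peak. Over those of them with an end peak, the shares were 14.6% of the bases and 27.6% of the snoRNAs with fkh-Gal4, and 22.8% and 38.1% with sage-Gal4. Bases of the 70 other hosts were pooled over genes of 566 to 136204 bp, so the longest weigh most, and sta was among them. The snoRNA shares there follow a few hosts. Of the 13 snoRNAs near a fkh-Gal4 peak, 4 lie in Nop60B and 4 in Uhg4. Of the 8 near a sage-Gal4 peak, 4 lie in Uhg4 and 2 in sta. A snoRNA counted when any of its bases was within 1 kb, whereas host bases were counted singly, so snoRNA shares run higher by construction. None of the differences between these shares was tested.

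RpS5a, a small subunit gene and the ribosomal protein host with the most snoRNAs, had no snoRNA near its peaks. It holds 14 snoRNAs in 4677 bp (X, 17143588 to 17148264), with peaks across the end at 17148264 in both lists, at 17148207 to 17148354 (148 bp) and 17148228 to 17148334 (107 bp). Its nearest snoRNA was 1448 bp from the fkh-Gal4 and 1469 bp from the sage-Gal4 peak, so none of the 14 counted as near. RpS7, with 7 snoRNAs in 2574 bp, had peaks of 172 and 162 bp just inside an end, and 2 of its snoRNAs, the pseudouridylation guides snoRNA:Psi28S-2626 and snoRNA:Psi18S-1377a, were within 1 kb in both lists.

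RpL28 and RpS16 each hold 5 snoRNAs. In RpL28 (3L, 3220911 to 3222960) the peaks spanned the end, at 3222946 to 3223049 and 3222918 to 3223046, and the orphan C/D RNAs snoRNA:Or-CD11a, snoRNA:Or-CD11b and snoRNA:Or-CD11c stood 405, 617 and 830 bp from the fkh-Gal4 peak. In RpS16 the peaks lay inside the gene, with centres 373.5 bp (fkh-Gal4) and 359.5 bp (sage-Gal4) from the end, the farthest of any ribosomal protein host in either list. The methylation guide snoRNA:Me28S-G2173 was 576 and 628 bp from them. RpL23A and RpL3 hold 4 snoRNAs each: in RpL3 2 of the 4 were near a peak in both lists, and in RpL23A, whose snoRNAs also lie inside the non-coding host Uhg7, none was, the nearest being 1390 and 1358 bp away.

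Of the hosts with fewer snoRNAs, RpS12 and RpL13A had both of their methylation guides within 1 kb in both lists, and RpL14, of the large subunit, had both of its U49 copies. RpS4 had 1 of its 3 near a peak in both lists. The single snoRNAs of RpL10Ab, RpL11, RpL30 and RpS6 were near a peak in both lists, with distances of 97, 709, 478 and 20 bp for fkh-Gal4 and 114, 702, 437 and 28 bp for sage-Gal4. Those of RpL4, RpL7A and RpS3A were not, at 1046 to 1511 bp in the fkh-Gal4 list, although each of these genes had an end peak in both.

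A few ribosomal protein hosts differed between the lists. RpS29 had an end peak with fkh-Gal4 alone (3R, 9777977 to 9778128, 152 bp), and its pseudouridylation guide snoRNA:Psi18S-1275 was 270 bp from it and 96086 bp from the nearest sage-Gal4 peak. RpL17 (X, 6744139 to 6744251, 113 bp), RpL27A (2L, 4458262 to 4458349, 88 bp) and RpL5 (2L, 22536611 to 22536683, 73 bp) had one with sage-Gal4 alone. At unknown depth, a peak that a list lacks may have escaped the call. Another 6 ribosomal protein hosts, with 10 snoRNAs in all, had no end peak in either list. Among them, the snoRNA nearest to a fkh-Gal4 peak was 6865 bp from it in RpS20, 8576 bp in RpS9, 12574 bp in RpL36A and 14347 bp in RpL15.

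Ribosomal protein genes that host no snoRNA had end peaks at a like rate in the fkh-Gal4 list, where 38 of 59 had one (64.4%, 50.9 to 76.4) against 67.9% of the hosts. In the sage-Gal4 list the shares were 34 of 59 (57.6%, 44.1 to 70.4) and 75.0%, with intervals that overlap. The hosts are the longer genes, with a median of 1887.5 bp against 1132 bp.

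**Figure D4:**
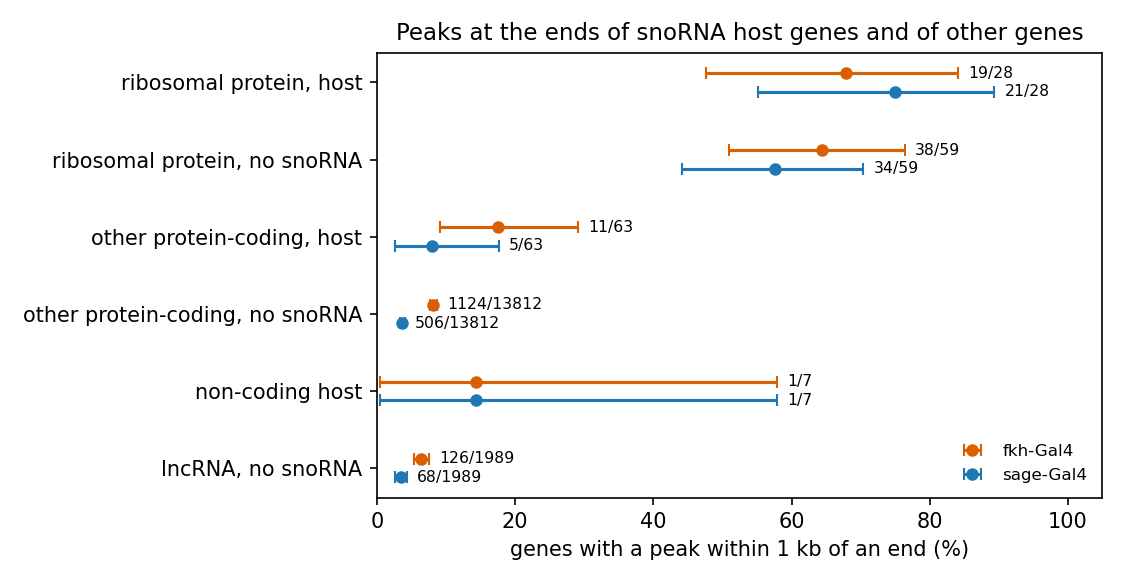
Share of genes with a peak within 1 kb of an end (percent, horizontal axis) for host genes and for genes that host no snoRNA, in the fkh-Gal4 (orange) and sage-Gal4 (blue) lists; points are shares, whiskers exact 95% intervals, and fractions the counts. Ribosomal protein genes with and without a snoRNA stand at 57.6% to 75.0%, other protein-coding hosts at 17.5% and 7.94%, and other protein-coding genes at 8.14% and 3.66%.

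Among the 63 protein-coding hosts without a ribosomal protein symbol, end peaks were found at 11 with fkh-Gal4 (17.5%, 9.05 to 29.1) and at 5 with sage-Gal4 (7.94%, 2.63 to 17.6). Protein-coding genes that host no snoRNA, with the 87 ribosomal protein genes of RpL or RpS symbol left out, gave 8.14% and 3.66%. These hosts are longer, with a median of 5738 bp against 2161 bp. The 5 met in both lists were sta, Stt3A, eEF1alpha1, kra and mask. At each of them a fkh-Gal4 and a sage-Gal4 peak overlapped.

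The peaks at these 5 genes lay at various distances from the end. At sta they were inside the gene (X, 1483190 to 1483394, 205 bp, and 1483238 to 1483331, 94 bp), and the snoRNAs snoRNA:M and snoRNA:Me28S-G980 were 600 and 561 bp from the fkh-Gal4 peak. At Stt3A, a subunit of the oligosaccharyltransferase that glycosylates secreted proteins, the peaks (158 and 155 bp) lay 660.5 and 672 bp inside, and 1 of its 3 snoRNAs, the methylation guide snoRNA:Me28S-U3344a, was 837 and 827 bp from them. At eEF1alpha1, which encodes the elongation factor that brings aminoacyl-tRNA to the ribosome, peaks of 183 bp (2R, 11892049 to 11892231) and 162 bp (11892070 to 11892231) lay 892 bp from its only snoRNA, snoRNA:Me28S-A1322. A second fkh-Gal4 peak at this gene (11890897 to 11890989, 93 bp) was nearer the end of ERp60, 36 bp away. At kra, with 8 snoRNAs, and mask, with 1, no snoRNA was within 1 kb of a peak.

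The 6 met with fkh-Gal4 alone were nop5, Tudor-SN, Edc3, hts, skd and drn, none with a snoRNA within 1 kb of a peak. In Tudor-SN, Edc3, skd and drn the peak was nearer the end of a neighbour (wac, CG7564, Pdss2 and lncRNA:CR43301). In 2 further hosts a fkh-Gal4 peak away from the ends came near a snoRNA. Nop60B, which encodes the pseudouridine synthase of the H/ACA particle, holds 7 snoRNAs, and a peak of 174 bp inside it (2R, 24184462 to 24184635) lay 205, 452, 688 and 927 bp from the 4 copies of the methylation guide snoRNA:Me28S-G1083. Leaving snoRNA genes out, the nearest annotated gene end to that peak was Nop60B's own, 1794.5 bp away, and the nearest sage-Gal4 peak to any of its snoRNAs was 113712 bp off. In tou, a peak of 170 bp (2R, 11592368 to 11592537) lay 883 bp from snoRNA:Psi28S-1180.

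Of the 7 non-coding hosts, Uhg4 alone had a peak, in both lists. Uhg7, whose snoRNAs were counted under RpL23A, is not among the 7; its nearest peaks were 1330 bp (fkh-Gal4) and 1298 bp (sage-Gal4) away. Uhg4 (2R, 9095273 to 9097312) was assigned 6 snoRNAs. snoRNA:Or-CD2 also lies inside it but was counted under the protein-coding gene Ctu1, at 1706 and 1685 bp from a peak. The peaks spanned the lower end of Uhg4 at 9095145 to 9095324 (180 bp) and 9095111 to 9095345 (235 bp). Their centres were 38.5 and 45 bp from that end. The 4 snoRNAs nearest that end were within 1 kb, the guide snoRNA:Psi28S-2949 at 48 and 27 bp, the orphan snoRNA:Or-aca5 at 361 and 340 bp, and the methylation guides snoRNA:Me28S-G3255a at 672 and 651 bp and snoRNA:Me28S-A982a at 913 and 892 bp. One of 7 is 14.3% (0.361 to 57.9), against 6.36% of all lncRNA genes with fkh-Gal4 and 3.46% with sage-Gal4. The other six, Uhg1 with 16 snoRNAs, Uhg5 with 11, Uhg2 with 4, Uhg3 and Uhg8 with 3 each and lncRNA:CR31647 with 1, had their nearest snoRNA 52245 to 123269 bp from a fkh-Gal4 peak and 53605 to 145426 bp from a sage-Gal4 peak.

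Outside the ribosomal protein genes, most hosts had no peak at their ends. Of all 70, 58 had none in either list, and of the 13 with 4 or more snoRNAs, 11 had none, a share close to that of all 70. These 11 hold 99 of the 113 snoRNAs concerned. They were Arpc2 (17 snoRNAs), a subunit of the actin-nucleating complex, Uhg1 (16), dom (15), a chromatin remodeller, Uhg5 (11), Sf3b3 (9), a splicing factor, Hrb98DE (7), an hnRNP protein, Nop60B (7), CG10576 (5), Uhg2, egr and lola (4 each). Among ribosomal protein hosts, 22 of 28 had an end peak in at least 1 list. All 7 of those with 4 or more snoRNAs had an end peak in the sage-Gal4 list, and 6 of 7 in the fkh-Gal4 list. The groups were chosen by snoRNA number, and no difference between them was tested.

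The 12 snoRNAs that lie inside no gene include the only members covered by a peak. Of the 3 genes for U3, snoRNA:U3:54Aa (2R, 17143521 to 17143730) was overlapped by a fkh-Gal4 peak of 82 bp (17143548 to 17143629) and snoRNA:U3:54Ab (17145617 to 17145826) by one of 110 bp (17145716 to 17145825). The nearest sage-Gal4 peak was 130440 and 128344 bp away. The third, snoRNA:U3:9B on X, had its nearest peak 71714 bp (fkh-Gal4) and 113730 bp (sage-Gal4) away. Both bound copies are 210 bp long and have a tRNA-Leu gene at 235 and 236 bp. Reads from such copies may map to either, and how the authors treated reads with several positions is not given in the sources used here, so whether these are separate sites was not tested.

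The 2 other lone snoRNAs with a peak had a different neighbourhood. scaRNA:MeU1:95C-A24 (2L, 901976 to 902082), named as a guide for U1 spliceosomal RNA, was 370 bp from a fkh-Gal4 peak of 119 bp (901488 to 901606) and 267 bp from a sage-Gal4 peak of 189 bp (901521 to 901709). Both peaks overlapped the U1 gene snRNA:U1:21D, whose end was 56 and 39 bp from their centres. The pseudouridylation guide snoRNA:Psi18S-301 (3R, 20574906 to 20575043) had a fkh-Gal4 peak of 91 bp 82 bp away (20574734 to 20574824), and its own end was the nearest annotated gene end, at 127 bp from the peak centre. The nearest sage-Gal4 peak was 24093 bp away.

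By kind of snoRNA as the symbol gives it, 17 of 77 methylation guides (22.1%) and 11 of 106 pseudouridylation guides (10.4%) were near a fkh-Gal4 peak, and 14 (18.2%) and 8 (7.55%) near a sage-Gal4 peak. Orphans gave 5 of 21 in each list (23.8%), and scaRNAs 1 of 16 (6.25%). The 49 snoRNAs with other names gave 5 (10.2%) and 3 (6.12%). Over all snoRNA genes the shares were 14.5% and 11.5%, and over other short genes without the arrays 6.05% and 2.65%. Inside ribosomal protein genes the methylation guides gave 8 of 20 and 9 of 20, and the pseudouridylation guides 8 of 41 and 7 of 41. Without RpS5a, whose 14 snoRNAs are all pseudouridylation guides, the latter became 8 of 27 and 7 of 27. That removal was chosen after the values were seen, and the difference between the kinds was not tested.

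Genes for the proteins that bind and modify with snoRNAs were mostly without peaks. Of 14 listed, 13 were found in the gene table, and 1 had an end peak with fkh-Gal4 (7.69%), a share near the 8.54% of all protein-coding genes, and 0 with sage-Gal4, which allows up to 23.1%. That one was nop5, a core protein of the C/D particle, which itself hosts a snoRNA and had a fkh-Gal4 peak of 85 bp with its centre 157 bp inside an end. Nop60B had 3 internal fkh-Gal4 peaks and no end peak, and 1 of the 3 is described above. Another (2R, 24177597 to 24177831, 235 bp) lay 1230 bp from snoRNA:Psi18S-1820. Fib (fibrillarin, which hosts 1 snoRNA), Nop56 and hoip of the C/D particle, NHP2, Gar1 and Nop10 of the H/ACA particle, the assembly factors Nopp140, Nufip, pont and rept, and U3-55K had no peak in the gene or within 1 kb in either list. The nearest was at 4797 bp (pont) in the fkh-Gal4 list and 4356 bp (Gar1) in the sage-Gal4 list.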

How the data were processed

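ChIP-seq of Rib-GFP was read from the 2 peak lists that the authors deposited, 1 per driver, as positions only. The submitters' processing notes name BWA, MACS2 2.1.0.20140616 and dm6. Threshold, control and filters of the peak calls are not stated in them. Per the labels, embryos were collected for 8 h and aged 11 h, fixed in 1.8% formaldehyde, and replicate collections were merged. The inputs were not analysed here.

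Peak starts were moved to 1-based positions. Genes were taken from a RefSeq table of the same assembly, without strand or exons. A snoRNA counted as near a peak that met it extended by 1 kb on each side. Its host was the gene that spans it. Where several do (18 snoRNAs), a ribosomal protein gene came first, then another protein-coding gene, then a non-coding gene. Among genes of the same rank the shortest was taken. A host had an end peak where a peak met the 1 kb around either end. Ribosomal protein genes were the 87 with RpL or RpS symbols, those ending in -like left out. Intervals are exact (Clopper-Pearson, scipy 1.17.1). Zero counts are given with the share that 3 counts allow. The peak counting was tested on simulated data. The motif search planned for host promoters was not run, because no sequence was used here. With no peak score, the wider peaks (at or above the median width) stood in for a stricter list.

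Named were the ribosomal protein hosts (some are not reported here by name), hosts of 4 or more snoRNAs, Uhg genes, U3 genes, lone snoRNAs and others with peaks, other protein-coding hosts with a peak in both lists, and the protein list; nop5, Tudor-SN, Edc3, hts, skd, drn and tou were picked once their values had been seen. The members and lists were chosen with earlier results of these data known.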

Additional observations from a re-analysis of the deposited data

How the results depend on the processing

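Each of 17 counts was recomputed under the alternatives, giving 134 values. Restriction to the major arms, merging of peaks within 500 bp and peak centres inside the snoRNA kept every count within 1.5 times. Hosts by partial overlap and either overlap rule between the lists did too. So did alternatives added after the data were seen: the 5 ncRNA genes, sta as a ribosomal protein gene, and RpS5a left out. The outcome for RpS5a was fixed in advance. None of its 14 snoRNAs was near a peak, so only the ribosomal protein hosts could change, to 18 and 20. What its removal changes is the total of 74, which these counts do not show. Counting sta so moved only its 2 snoRNAs and 1 host gene per list. The window mattered most. At 500 bp, the fkh-Gal4 and sage-Gal4 counts fell to 16 and 11 snoRNAs in all, 8 and 8 in ribosomal protein genes, 4 and 2 in other genes, and 10 near a peak in both lists, with 7 and 3 other protein-coding hosts. At 2 kb they rose to 80 and 69 in all, 46 and 50 in ribosomal protein genes, 30 and 17 in other genes, and 62 in both lists; lone snoRNAs rose to 2 and other protein-coding hosts to 8 in the sage-Gal4 list. By construction, a wider window takes in more. At every window the totals are 269 snoRNAs, 74 of them in ribosomal protein genes and 183 in other genes. The other short genes were not counted at 500 bp or 2 kb. Whether the snoRNA share stands above theirs at those windows was therefore not tested. With the wider peaks alone, the fkh-Gal4 list gave 26 snoRNAs, 13 of 74 in ribosomal protein genes and 13 of 183 in other genes, the latter unchanged. It gave 0 lone ones, 0 covered by a peak and 4 other protein-coding hosts. Neither U3 peak is thus among the wider ones. The sage-Gal4 list gave 27 snoRNAs, 20 in ribosomal protein genes, 6 in other genes and 1 lone one, with 3 other protein-coding hosts. Both lists shared 17. The other short genes were not counted with the wider peaks either. With each host counted once, 14 and 14 ribosomal protein hosts and 6 and 4 others had a snoRNA within 1 kb. No paired analysis was possible because each driver has 1 merged list. No replicate could be left out. Depth is unknown and limits every absence.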

Other observations

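By the target RNA in the symbol, 22 of 113 guides for 28S ribosomal RNA (19.5%) and 6 of 67 for 18S (8.96%) were near a fkh-Gal4 peak, and 17 (15.0%) and 5 (7.46%) near a sage-Gal4 peak. Guides for U snRNAs gave 1 of 18 in each list (5.56%), the scaRNA beside snRNA:U1:21D. The 70 with no target in the symbol gave 10 (14.3%) and 8 (11.4%). Over all snoRNA genes the shares were 14.5% and 11.5%. snoRNAs of 1 host share its peak, so these counts follow a few hosts, and the difference was not tested.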
